A study of Mus musculus with 2 samples.

Results

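Keratins build the intermediate filaments of epithelial cells, and the keratin genes examined here were all genes whose symbol is Krt followed by a number alone and that had at least 1 UMI in either of 2 single-cell libraries from mouse skin. Of the 28000 genes in the files, 47 had such a symbol and 30 of these were found, while 17 had 0 UMIs. A UMI (unique molecular identifier) marks 1 captured RNA molecule. The 3′ method used here counts 1 tag per transcript, so that levels were not scaled by transcript length. Levels are given as CPM, in which the UMIs of every group of cells are scaled to the same total.

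The study examined the histone chaperone HIRA in the pigment cell lineage. Cells came from trunk skin of embryos at E15.5, on a mixed background close to C57BL/6J, and live tdTomato+ cells were sorted before droplet capture. The WT library was TyrCre::Hira wt/wt:tdTomato and the KO library was TyrCre::Hira fl/fl:tdTomato. Both genotypes carried a Cre driven by the promoter of the tyrosinase gene and a tdTomato reporter switched on by Cre, and embryos were processed individually. The Cre acts in melanoblasts and some other derivatives of the neural crest, and keratinocytes, which arise from surface ectoderm, are not its intended target. Whether it acted in the keratinocyte-like cells was not tested. With 1 library per genotype there were no replicates, no difference was tested, and every interval below is a 95% interval that covers counting error only.

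The WT library held 1546 barcodes with 7073939 UMIs (median 3961 per barcode) and the KO library 846 barcodes with 5049514 UMIs (median 5152.5). The libraries shared 0 barcodes. After filtering, 1540 WT and 828 KO cells were kept. Hira itself had 35 UMIs in the melanoblast-like cells of WT (13.8 CPM, 9.60 to 19.2) and 3 in those of KO (3.53 CPM, 0.728 to 10.3). Whether its 3′ tags lie within the deleted part is not given in the sources used here. Xist, the RNA of the inactive X chromosome, had 184 UMIs over all 12 keratinocyte-like cells of WT and 3 UMIs over the 81 of KO, while the Y-linked Eif2s3y had 0 and 27. Sex and genotype therefore varied together and cannot be told apart.

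Keratin filaments form from pairs of an acidic type I chain and a basic type II chain. In stratified epidermis, basal cells attached to the basement membrane make Krt5 and Krt14, and cells that leave this layer switch to Krt1 and Krt10 as they begin to cornify. Simple epithelia, mucosa and hair follicles use other pairs, and pigment cells, glia and mesenchymal cells rely mainly on other filament proteins such as vimentin.

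Among the 30 genes, 18 encode type I and 12 type II chains. On mm10, 17 lay within chr11:99279959-100269871 and 13 within chr15:101347444-102032027. The chromosome 15 group comprised all type II members together with Krt18, a type I gene. None (0) of them overlapped another listed gene on the same strand. In total, 18 members were found in WT and 28 in KO, of which 2 (Krt20 and Krt71) were found in WT only and 12 in KO only. Keratin UMIs numbered 1866 in WT (0.0264% of all UMIs) and 27859 in KO (0.552%).

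Counts were steeply graded. Krt10 (ENSMUSG00000019761, chr11:99385254-99389364) had 762 UMIs in WT and 11507 in KO over all barcodes, and its type II partner Krt1 (ENSMUSG00000046834, chr15:101845426-101850794) had 446 and 10221. The basal layer genes followed. Krt14 (ENSMUSG00000045545, chr11:100203162-100207548) had 191 and 1706 UMIs, and its partner Krt5 (ENSMUSG00000061527, chr15:101707070-101712898) had 161 and 1304. Krt15 (ENSMUSG00000054146, chr11:100131758-100135928), a type I chain of basal cells and of the hair follicle bulge, had 150 and 1630. Krt17 (ENSMUSG00000035557, chr11:100256217-100261029), a type I chain of hair follicles and other skin appendages, had 112 and 590. These 6 genes were the only members with over 100 UMIs in both libraries.

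A further 6 members had at least 50 UMIs, nearly all of them in KO. Krt79 had 11 UMIs in WT and 180 in KO, Krt7 had 2 and 160, and Krt4 had 13 and 144. Krt13 had 0 and 129, Krt19 had 1 and 119, and Krt77 had 3 and 60. Another 7 members had 5 to 49 UMIs over both libraries. They were Krt16 (2 in WT and 35 in KO), Krt18 (3 and 17), Krt78 (0 and 15), Krt32 (0 and 12), Krt23 (0 and 8), Krt8 (3 and 5) and Krt24 (2 and 3). The last 11 members, Krt2, Krt12, Krt20, Krt28, Krt31, Krt34, Krt36, Krt42, Krt71, Krt76 and Krt80, had 18 UMIs together. Of these, Krt2, Krt20, Krt31, Krt36, Krt71, Krt76 and Krt80 had 1 UMI each, just inside the rule. Outside it, among keratin symbols that end in a letter, Krt6a had 0 UMIs in WT and 196 in KO and Krt33a had 0 and 1.

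Keratin genes were held out when the cells were clustered, so that keratin levels could be read in cells chosen without them. The class called keratinocyte-like had 11 of 12 fixed keratinocyte markers raised, among them Trp63, Epcam and Cdh1, and was led by Krtdap, Dmkn, Lgals7 and Ly6d. It held 12 of 1540 cells in WT (0.779%, exact Clopper-Pearson interval 0.403 to 1.36) and 81 of 828 in KO (9.78%, 7.84 to 12.01). The class was thus mostly of 1 library. Cells had been sorted on tdTomato, and the paper reports that not all sorted cells were tdTomato+. How these cells came to be among the sorted ones was not tested. The tdTomato transcript was found in 0 of the 12 WT cells and in 9 of the 81 KO cells. In melanoblast-like cells it was found in 23 of 536 and 9 of 139, so the transcript was sparse in the sorted lineage as well. Hira had 3 UMIs in keratinocyte-like cells of WT (36.1 CPM, 7.45 to 106) and 14 in those of KO (18.4 CPM, 10.1 to 30.9).

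Keratin RNA lay mainly in these cells. In WT, keratinocyte-like cells held keratins at 17024 CPM (16148 to 17935) and all other cells 64.2 (58.4 to 70.4). In KO, the values were 32551 (32147 to 32959) and 414 (395 to 434). The number of keratin UMIs in a keratinocyte-like cell ran from 10 to 362 in WT (median 82) and from 7 to 1768 in KO (median 263). For the 12 members with at least 50 UMIs, between 87.3% (Krt4) and 94.5% (Krt13) of the UMIs in kept cells of both libraries, most of them from KO, were in keratinocyte-like cells. For Krt4, Krt7, Krt13 and Krt19 this part rested on a single KO cell, described further on, with 137 Krt4 and 119 Krt13 UMIs. The other members ran from 90.5% (Krt79) to 94.1% (Krt1). In WT alone the parts were smaller for some genes, with 459 Krt10 UMIs in keratinocyte-like cells and 300 in others, 149 and 42 for Krt14, and 0 and 13 for Krt4. Within these cells, type II chains made up 40.3% of keratin UMIs in WT (37.8 to 43.0) and 43.4% in KO (42.8 to 44.1).

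The keratinocyte-like cells were sub-clustered, again without keratins, to ask which members went with which layer. A suprabasal-like group of 2 WT and 24 KO cells was led by genes of the cornified envelope and of the surface layer, such as Cnfn, Sprr1a, Psca and Lor. A single KO cell of this group, described further on, held most KO UMIs of Cnfn (526 of 589), Sprr1a (267 of 296) and Psca (201 of 231). A basal-like group of 4 WT and 21 KO cells was led by Rgs2, Dcn, Col17a1, Wnt6 and Igfbp2. The other cells had no layer name. The largest group among them had 3 WT and 20 KO cells, another was led by Dct and Pmel, genes of pigment cells (3 WT and 5 KO), and another by Ube2c, a gene of dividing cells (11 KO).

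**Figure D1:**
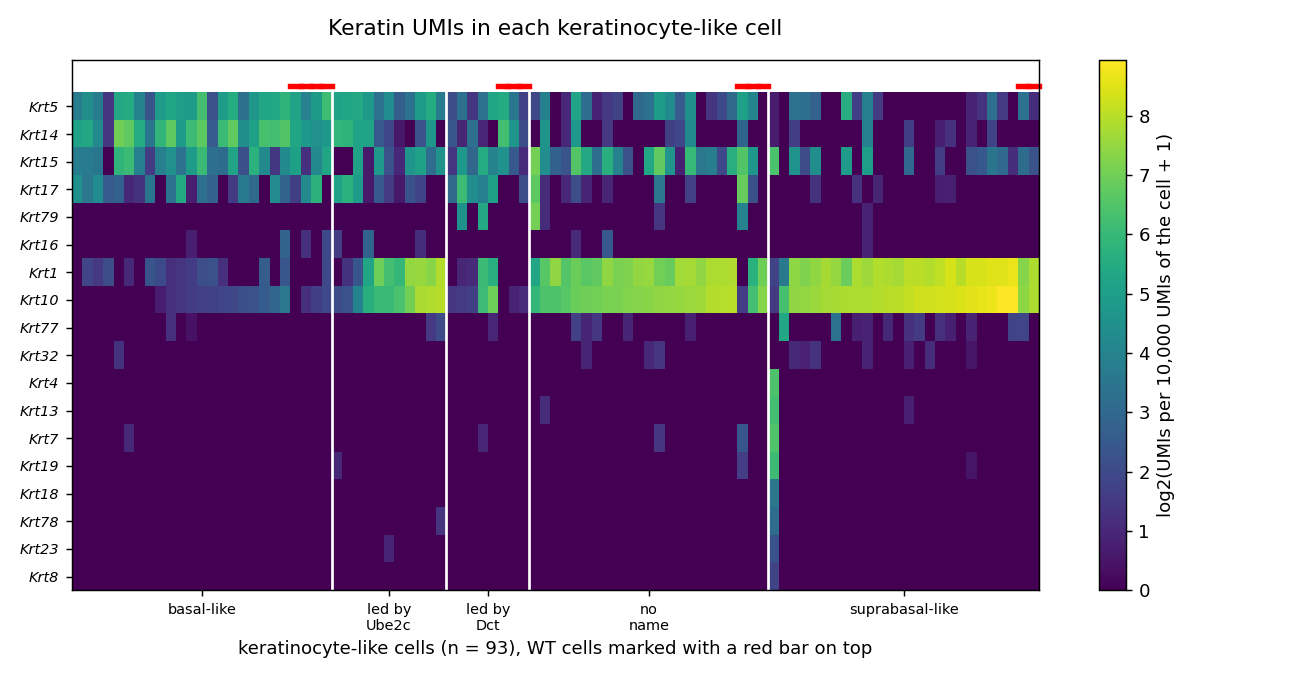
Each column is 1 of the 93 keratinocyte-like cells of both libraries, grouped by sub-cluster, each line is a keratin gene, and colour gives log2 of the UMIs per 10000 UMIs of the cell plus 1; red bars mark the 12 WT cells. Krt1 and Krt10 fill the suprabasal-like group, Krt5 and Krt14 the basal-like group, and a single KO cell carries nearly all Krt4, Krt7, Krt13 and Krt19.

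Krt10 and Krt1 separated the layers by more than 100-fold in KO. Krt10 stood at 26826 CPM in suprabasal-like KO cells (26171 to 27494) and at 207 CPM in basal-like ones (147 to 284), a log2 ratio of 7.02 (6.56 to 7.52). Krt1 stood at 23704 CPM (23088 to 24332) and 196 CPM (138 to 272), a log2 ratio of 6.92 (6.44 to 7.43). Both basal-like levels lay near those of KO cells outside the keratinocyte-like class, 182 CPM for Krt10 (169 to 195) and 131 CPM for Krt1 (120 to 142), and how much of them was RNA of the basal-like cells themselves was not tested. Per cell, Krt10 ran from 189.5 to 48790 CPM in the 24 suprabasal-like cells (median 25161) and from 0 to 1053 CPM in the 21 basal-like cells (median 159). The lowest suprabasal-like value was that of the single KO cell described further on, which had 3 Krt10 UMIs. With sub-clusters made from 30 components and 15 neighbours, a setting added after the data were seen, the log2 ratios were 4.55 for Krt10 and 5.51 for Krt1. With keratins kept for clustering, a setting planned beforehand, a suprabasal-like and a basal-like KO group were not both named. No ratio between layers was obtained there.

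The same pair was high in the suprabasal-like WT cells. Their Krt10 UMIs were 178 and 127 and their Krt1 UMIs 180 and 119, while the 4 basal-like WT cells had 0 or 1 UMI of each. The WT log2 ratios were 7.06 for Krt10 (5.50 to 9.35) and 8.62 for Krt1 (6.13 to 13.93). Between libraries, the suprabasal-like cells differed less than the layers did. Krt10 was at 19852 CPM in WT (17686 to 22209), with a log2 ratio of KO to WT of 0.43 (0.27 to 0.60), and Krt1 was at 19461 CPM (17317 to 21797), with 0.28 (0.12 to 0.46). Only 2 WT cells stand behind these ratios.

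Krt77, a type II gene beside Krt1 on chromosome 15, had 30 UMIs in suprabasal-like KO cells (127 CPM, 85.4 to 181) and 2 in basal-like ones (10.9 CPM, 1.32 to 39.4). Its log2 ratio was 3.54 (1.56 to 6.65). In WT its 2 UMIs in keratinocyte-like cells were both in 1 suprabasal-like cell. Krt32, a type I hair keratin, had at most 1 UMI in any keratinocyte-like cell, with 7 of its 12 KO UMIs in suprabasal-like cells and 1 in basal-like cells.

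Krt14 and Krt5 ran the other way. In KO, Krt14 stood at 127 CPM in suprabasal-like cells (85.4 to 181) and at 6251 CPM in basal-like ones (5894 to 6623), a log2 ratio of -5.63 (-6.20 to -5.10). All 21 basal-like KO cells had Krt14, from 165 to 12726 CPM, and 8 of the 24 suprabasal-like cells did. Krt5 stood at 350.2 CPM (279 to 434) and 3033 CPM (2786 to 3295), a log2 ratio of -3.11 (-3.46 to -2.78). Basal-like cells were therefore richer in both chains, by a wider margin for the type I chain.

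In WT, the 4 basal-like cells had 20, 9, 10 and 17 Krt14 UMIs and 11, 24, 13 and 16 Krt5 UMIs. The suprabasal-like cells had 0 Krt14 UMIs between them against 56, at least 14.2-fold lower when set at a floor of 3 counts. Their Krt5 UMIs were 1 and 7, and the WT log2 ratio of Krt5 was -2.61 (-3.88 to -1.54). Between the libraries, basal-like Krt5 differed by less than counting error, with 3171 CPM in WT (2442 to 4049) and a log2 ratio of KO to WT of -0.06 (-0.44 to 0.33). Krt14 was lower in the basal-like cells of WT, at 2774 CPM (2096 to 3603), with a log2 ratio of 1.17 (0.78 to 1.59).

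Krt15 and Krt17 were also lower in suprabasal-like than in basal-like cells. In KO, Krt15 stood at 1110 CPM in suprabasal-like cells (980 to 1252) and at 2340 CPM in basal-like ones (2124 to 2572), a log2 ratio of -1.08 (-1.30 to -0.85). A single suprabasal-like cell held 132 of its 263 UMIs there, and without that cell the ratio was -1.98 (-2.28 to -1.70). With sub-clusters from 10 components, also a later choice, it was -2.20. The WT ratio of Krt15 was -1.65 (-2.88 to -0.57).

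Krt17 had 6 UMIs in suprabasal-like KO cells (25.3 CPM, 9.29 to 55.1) and 130 in basal-like ones (709 CPM, 592 to 842), a log2 ratio of -4.81 (-6.28 to -3.65). In WT it had 0 against 39 UMIs, at least 9.90-fold lower. The WT basal-like cells were uneven for this gene, with 14, 0, 24 and 1 UMIs. The log2 ratio of KO to WT in basal-like cells was -1.45 (-1.97 to -0.89), and 38 of the 39 WT UMIs came from those 2 cells with 14 and 24. Krt16, the type I chain made in wounded and rapidly dividing epidermis, had 1 UMI in suprabasal-like KO cells and 8 in basal-like ones, of which 6 were in 1 cell, a log2 ratio of -3.37 (-8.84 to -0.47).

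**Figure D2:**
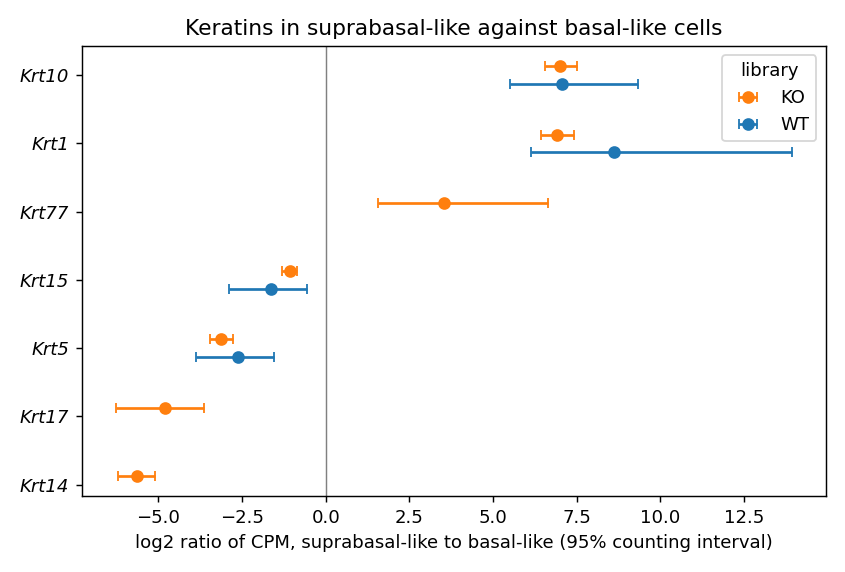
Points give the log2 ratio of CPM in suprabasal-like to basal-like cells for each keratin in KO (orange) and WT (blue), and bars the 95% counting interval. Krt10 and Krt1 lie near 7 in KO, and Krt14 lies at -5.63; genes with 0 UMIs in either WT group have no WT point.

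Summed over all members, suprabasal-like KO cells stood at 54643 CPM (53706 to 55593) and basal-like ones 12801 (12288 to 13330). WT values were 40549 (37427 to 43862) and 10007 (8675 to 11487). The share of type II chains also differed between layers. It was 25.4% in basal-like KO cells (23.6 to 27.2) and 46.5% in suprabasal-like ones (45.7 to 47.4), and in WT 32.2% (25.8 to 39.1) and 49.6% (45.6 to 53.6). In basal-like cells, type I RNA thus outnumbered type II RNA in both libraries.

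Of the 30 members, 13 had at least 10 UMIs over both layers in KO. By a fold of 2 or more, with 1 UMI added, 9 were higher in suprabasal-like cells (17.8% of the 4294 genes counted were) and 4 were lower (15% were). Their median log2 ratio was 3.80, against -0.05 over all genes counted, and 3.54 with zeros set at 3 counts. Of the 9, 6 (Krt4, Krt7, Krt13, Krt18, Krt19 and Krt78) rested on a single cell. Without it, a choice made after the data were seen, 7 members were counted, 3 higher (16.2% of 4102 genes were) and 4 lower (14.9%), and their median turned to -1.97, against -0.07 over all genes. The neighbouring gene lists below were among the genes used to cluster the cells, so their values between layers are a description. Some of their members also gave the groups their names, so the direction of these was set by the naming. They were Itga6, Col17a1, Dst and Trp63 for the basal-like group, and Sbsn, Krtdap, Dsg1a, Lor, Calml3, Cnfn and Calm4 for the suprabasal-like group.

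Desmosome and cell envelope genes, whose proteins anchor keratin filaments at cell junctions, had 9 of 15 counted, and all 9 were higher in suprabasal-like cells. Perp, a desmosomal membrane protein, was at 3173 CPM in suprabasal-like KO cells (2950 to 3408) and at 807 CPM in basal-like ones (682 to 948), and Dsp, which links keratins to the desmosome, at 1481 (1330 to 1644) and 229 (165 to 310). Hemidesmosome and basement membrane genes, which fix keratins to the basal side, had 4 of 10 counted, with 0 higher and 3 lower. Dst was at 16.9 CPM (4.60 to 43.2) against 109 (66.6 to 168), and Plec at 71.7 (41.8 to 115) against 65.5 (33.8 to 114).

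Cornification genes had 13 of 17 counted, and all 13 were higher in suprabasal-like cells, as were all 11 counted without the single cell. Krtdap, a secreted protein of differentiating keratinocytes, was at 13025 CPM (12569 to 13493) against 2307 (2093 to 2538), and Dmkn, another secreted epidermal protein, at 4654 (4383 to 4937) against 1309 (1149 to 1486). Of 14 epidermal transcription factors 11 were counted, 6 higher and 3 lower. Klf4, a factor of barrier formation, was at 363 CPM (290.2 to 448) against 164 (110.4 to 234), and Klf5 at 173 (124 to 235) against 76.4 (41.7 to 128).

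The largest group without a layer name carried suprabasal keratins, with Krt10 at 15350 CPM (14750 to 15969) and Krt1 at 15051 CPM (14456 to 15663) in KO. Its Krt15 level in KO was 3622 CPM (3334 to 3929), above the 2340 CPM of basal-like cells, while its 3 WT cells were uneven, with 20, 43 and 0 Krt15 UMIs. Krt17 was likewise above its basal-like KO level of 709 CPM in the KO cells led by Dct (2695 CPM, 2302 to 3136). In KO, neither gene was thus highest in the basal-like group.

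In the group led by Ube2c, keratins of both layers were present. Krt10 was at 8772 CPM there (8246 to 9324), Krt5 at 2573 CPM (2292 to 2880) and Krt14 at 2352 CPM (2083 to 2646), and this group held 15 of the 30 Krt16 UMIs of keratinocyte-like KO cells, 12 of them in 1 cell.

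The group led by Dct combined keratins with pigment cell genes. Dct, which makes a pigment enzyme, stood at 1374 CPM in its WT cells (982 to 1871) and 1146 CPM in its KO cells (895 to 1445), where 2 of the 5 cells had it. Melanoblast-like cells had 3050 CPM in WT (2982 to 3118) and 2904 in KO (2791 to 3021). Its 3 WT cells held 90 of the 149 Krt14 UMIs and 49 of the 150 Krt5 UMIs of WT keratinocyte-like cells, and 2 Krt10 UMIs. Its 5 KO cells held 23 Krt14 UMIs and 215 Krt10 UMIs. The part of this group in the comparisons between libraries is given below by leaving it out.

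Within cells, Krt1 and Krt10 were mostly found together, while Krt5 was often found without Krt14. At 5 or more UMIs, 54 of the 81 KO cells had both Krt1 and Krt10, 1 had Krt1 alone and 3 had Krt10 alone. For Krt5 and Krt14, 27 cells had both, 18 had Krt5 alone and 3 had Krt14 alone. Krt15 is another type I chain of basal cells, and 36 of the 81 cells had both Krt5 and Krt15 while 9 had Krt5 alone and 12 had Krt15 alone. At this cut, 27 cells had both Krt5 and Krt10. Basal-like KO cells had up to 10 Krt10 UMIs, at a level near that of KO cells outside the class. How many of the 27 made both RNAs themselves was not tested.

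Across the 81 KO cells, Spearman's rho of CPM was 0.941 for Krt1 and Krt10, 0.703 for Krt5 and Krt14 and 0.530 for Krt5 and Krt15. It was -0.672 for Krt14 and Krt10 and -0.506 for Krt5 and Krt10. These cells share a library and differ in depth, and the values are a description. A further set was the 51 keratinocyte-like cells of WT and KO whose Krt10 and Krt1 UMIs summed to at least 100. Among them, Krt10 UMIs per Krt1 UMI ran from 0.726 to 2.51 (median 1.10). Cells with a smaller sum were not part of this set.

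The promoters of Krt5, Krt10 and Krt13 are shown as the 100 bases before the start given by RefSeq for GRCm38.p6, 5′ to 3′ on the minus strand, on which all 3 genes lie. Krt10 is at chr11:99389365-99389464, Krt5 at chr15:101712906-101713005 and Krt13 at chr11:100121567-100121666. Capitals mark ATAAA, a motif chosen after the sequences were seen and searched on both strands (TTTAT on the other strand). Of the members, 23 had a promoter in the table and 14 of these held the motif, against 5748 of all 32851 promoters (17.5%). Members were counted once each even where a gene had several entries, as Krt13 did, while all promoters were counted by entry. Because the motif was chosen from these sequences, no excess is read from the counts. All 3 shown held it, while the entry for Krt14, whose listed start lies inside the gene, and those for Krt77 and Krt79 did not. A match is a description of the letters and no evidence of a bound factor.
Krt10: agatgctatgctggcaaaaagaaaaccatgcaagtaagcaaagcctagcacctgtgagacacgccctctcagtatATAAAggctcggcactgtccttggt
Krt5: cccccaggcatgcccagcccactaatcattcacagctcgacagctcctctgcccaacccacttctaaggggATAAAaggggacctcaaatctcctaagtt
Krt13: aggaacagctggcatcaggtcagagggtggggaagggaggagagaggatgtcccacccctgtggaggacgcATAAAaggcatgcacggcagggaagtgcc

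A single KO cell accounted for most UMIs of a separate set of keratins. It fell into the suprabasal-like group, had 15831 UMIs and was not called a doublet, and 4.36% of its UMIs (691) were keratins. It had 139 of the 160 Krt7 UMIs in kept KO cells, 137 of 144 for Krt4, 119 of 128 for Krt13 and 110 of 119 for Krt19. Krt4 and Krt13 form the pair of moist stratified epithelia such as the oesophagus, and Krt7 and Krt19 are chains of simple and glandular epithelia.

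The same cell also held all 17 Krt18 UMIs and all 4 Krt8 UMIs of kept KO cells, the pair of simple epithelia, 13 of 15 Krt78 UMIs, 6 of 8 Krt23 UMIs and 187 of 195 Krt6a UMIs. The pair of the suprabasal layer was nearly missing, with 3 Krt10 and 4 Krt1 UMIs, and so was the basal pair, with 1 Krt5 and 1 Krt14 UMI, while Krt15 had 132. Of a fixed list of 7 genes of periderm, the flat outermost layer of embryonic skin, 4 were found in it: Sprr1a (267 UMIs), Psca (201), Sprr3 (39) and Gabrp (1). Grhl3, Cldn6 and Muc4 were at 0. Cnfn, a cornified envelope gene, had 526 of its 589 UMIs there. Without this cell, the other 80 keratinocyte-like KO cells had 3 Krt7, 0 Krt4, 2 Krt13 and 2 Krt19 UMIs.

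Krt79, a type II chain known from the hair canal, was concentrated in a few cells too. Of its 190 UMIs in kept cells, 169 were in 4 keratinocyte-like cells, with 94, 44 and 24 in 3 KO cells and 7 in 1 WT cell. These cells had 74, 15, 72 and 54 Krt17 UMIs and 94, 47, 28 and 43 Krt15 UMIs, in the same order. Their Krt14 UMIs were 0, 1, 1 and 3. None (0) of them was in the basal-like or suprabasal-like group, and 2 were in the group led by Dct.

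Between the libraries, keratinocyte-like cells of KO had a higher keratin level than those of WT, with a log2 ratio of 0.94 (0.86 to 1.01). Without the group led by Dct, left out as an alternative added after the data were seen, the WT level was 23103 CPM and the ratio 0.57. The suprabasal pair was higher in KO. Krt10 was at 5530.0 CPM in WT (5036 to 6060) and 13289 in KO (13031 to 13551), a log2 ratio of 1.26 (1.13 to 1.40), and Krt1 at 4928 (4462 to 5429) and 11945 (11701 to 12194), a log2 ratio of 1.28 (1.13 to 1.42). Without the group led by Dct these were 0.74 and 0.76. Suprabasal-like cells were 2 of the 12 WT cells and 24 of the 81 KO cells, and the part of this makeup in the ratios was not tested.

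The basal genes were mixed in direction. Krt14 was at 1795 CPM in WT (1519 to 2108) and 2042 in KO (1942 to 2146), a log2 ratio of 0.19 (-0.06 to 0.44) that was 1.00 (0.63 to 1.40) without the group led by Dct. Krt5 was at 1807 (1530 to 2121) and 1524 (1438 to 1614), a log2 ratio of -0.25 (-0.49 to 0.01), -0.71 after thinning and -0.26 without the group led by Dct. Krt17 was at 1193 (969 to 1452) and 710.1 (651 to 773), a log2 ratio of -0.75 (-1.06 to -0.42), and -1.74 without that group. A single WT cell held 54 of the 99 WT Krt17 UMIs, and without it, a choice made after the data were seen, the ratio turned to 0.30 (-0.14 to 0.78). The direction of Krt17 therefore rested on 1 cell. Krt15 was at 1602 (1342 to 1899) and 1967 (1869 to 2070), a log2 ratio of 0.30 (0.04 to 0.56), and its sign turned with the mean of per-cell CPM (-0.03) and without the group led by Dct (-0.02), and was 0.77 without that WT cell.

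Of the rarer members, Krt79 was at 84.3 CPM in WT (33.9 to 174) and 217 in KO (185 to 253), a log2 ratio of 1.36 (0.29 to 2.70) that rested on the 4 cells above. Krt77 had a log2 ratio of 1.26 (-0.67 to 4.35), within counting error. Krt4 and Krt13, with 0 WT UMIs, were at least 4.98-fold and 4.402-fold higher in KO against a floor of 3 counts, and Krt7 and Krt19 had log2 ratios of 2.95 (1.07 to 6.01) and 3.61 (1.10 to 8.93). These 4 genes had their counts in the single KO cell, without which Krt4 had 0 UMIs in both libraries, Krt13 had 0 and 2, Krt7 2 and 3 and Krt19 1 and 2.

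By the same fold of 2 or more, 7 of the 16 members with at least 10 UMIs were higher in KO keratinocyte-like cells (6.24% of 6615 genes were) and 0 were lower (16.7% were). The members' median log2 ratio was 0.84, against -0.27 over all genes counted, and 0.99 with zeros at 3 counts. With 0.5 UMI added in place of 1, 1165 of the 6615 genes were higher and 860 lower, so which direction had more genes depended on the added count. The 7 were Krt10, Krt1, Krt79, Krt7, Krt4, Krt13 and Krt19, the last 4 resting on the single cell. Without that cell 10 members were counted, 3 higher (6.1% of 6497 genes were) and 0 lower (16.7%), with a median of 0.31 against -0.26 over all genes. Of the lists, 11 desmosome and envelope genes were counted with 2 higher and 1 lower, 7 hemidesmosome genes with 0 and 5, 14 cornification genes with 6 and 0, and 11 transcription factors with 1 and 1. Median log2 ratios were 0.59, -1.13, 0.64 and -0.07, in this order. Without the single cell, 2 of 12 cornification genes counted (Lor and Calm4) were higher, and 4 of 7 hemidesmosome genes lower.

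Of the genes named from these lists, the cornification genes had smaller ratios than Krt10. Krtdap was at 5602 CPM in WT (5105 to 6135) and 8198 in KO (7995 to 8404), and Dmkn at 2169 (1863 to 2510) and 3218 (3092 to 3348). Perp was at 1699 (1430 to 2003) and 2166 (2062 to 2273), and Dsp at 518 (375 to 698) and 849 (785 to 918). The factor Klf4 was at 229 CPM in both libraries (138 to 357 and 196 to 265), Klf5 at 217 (129 to 343) and 197 (167 to 231), Dst at 84.3 (33.9 to 174) and 53.9 (38.7 to 73.1), and Plec at 24.1 (2.92 to 87.0) and 64.4 (47.7 to 85.2).

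Outside the keratinocyte-like class, keratin UMIs were sparse in WT and widespread in KO. The median glial-like, melanoblast-like or mesenchymal-like cell had 0 keratin UMIs in WT and 2 in KO. In melanoblast-like cells, keratins stood at 67.4 CPM in WT (57.7 to 78.3) and 421 in KO (379 to 467), in glial-like cells at 85.9 (72.2 to 101) and 479 (440.3 to 520), and in mesenchymal-like cells at 51.0 (37.9 to 67.3) and 384 (344 to 427). Over all such cells the ratio of KO to WT was 2.69 in log2 (2.54 to 2.84). The KO library also had 81 keratinocyte-like cells against 12. RNA set free from these cells and captured with others was not tested as a source.

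Markers of some other classes likewise differed in keratinocyte-like cells. Erythroid markers stood at 84.3 CPM in WT (33.9 to 174) and 1276 in KO (1197 to 1358), mesenchymal markers at 120 (57.8 to 222) and 593 (539.6 to 650.4), and neutrophil markers at 12.05 (0.305 to 67.1) and 221 (189 to 257). S100a8 gave 74 of the 168 UMIs of the neutrophil list in KO. Whether the keratinocyte-like cells made any of these RNAs themselves was not tested. Other lists went the other way, with melanoblast markers at 506 (365 to 684) and 108 (85.8 to 134), where the group led by Dct held 38 of the 42 WT UMIs and 52 of the 82 KO UMIs, and mast cell markers at 72.3 (26.5 to 157) and 11.8 (5.41 to 22.5).

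The ratio of KO to WT in these other cells differed among members. It was 2.08 in log2 for Krt10 (1.89 to 2.28; 43.0 and 182 CPM) and 4.67 for Krt1 (4.18 to 5.196; 5.16 and 131 CPM). Krt5 had 3.90 (3.004 to 4.95; 1.58 and 23.6 CPM), Krt15 3.29 (2.54 to 4.13; 2.44 and 23.8 CPM), Krt14 2.26 (1.74 to 2.80; 6.02 and 28.8 CPM) and Krt17 2.31 (1.37 to 3.34; 1.86 and 9.21 CPM). Krt7, of simple epithelia, had 0 and 18 UMIs and was at least 9.88-fold higher in KO. Of 9 members with at least 10 UMIs, 8 were higher in KO by a fold of 2 or more (8.51% of 13291 genes were) and 0 were lower (3.87% were). The exception was Krt4. Their median log2 ratio was 2.31, against 0.02 over all genes, and 2.53 with zeros at 3 counts.

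Other epidermal genes were also higher in these cells of KO. All 7 of the cornification genes counted were so, with a median log2 ratio of 4.18, as were 3 of 5 desmosome and envelope genes (Dsp, Pkp1 and Perp) and 2 of 7 transcription factors (Klf4 and Tfap2c). Of the 5 hemidesmosome and basement membrane genes counted, 0 were higher and 0 lower.

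In KO, keratins of other cells resembled those of keratinocyte-like cells in their proportions. Each of the 12 members with at least 50 UMIs stood in other cells at 0.917% to 2.28% of its keratinocyte-like CPM, with Krt10 at 1.37%, Krt1 at 1.10%, Krt14 at 1.41% and Krt5 at 1.55%. For Krt4 (0.917%), Krt7 (2.28%), Krt13 and Krt19, these values rested on the single KO cell. Without it, keratinocyte-like KO cells stood at 0 CPM for Krt4, 4.03 for Krt7 and 2.69 each for Krt13 and Krt19. The resemblance was therefore not shown for these genes. Krt10 made up 43.9% of keratin UMIs in other KO cells (41.6 to 46.3) and 40.8% in keratinocyte-like ones (40.2 to 41.4), and Krt1 31.7% (29.5 to 33.9) and 36.7% (36.1 to 37.3). Type II chains made up 39.8% of keratin UMIs there (37.5 to 42.2).

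In WT the proportions were different. Krt10 in other cells stood at 0.777% of its keratinocyte-like CPM, Krt14 at 0.335%, Krt17 at 0.156%, Krt15 at 0.152%, Krt1 at 0.105% and Krt5 at 0.0872%. Krt10 thus made up 67.0% of the keratin UMIs of other WT cells (62.4 to 71.3) against 32.5% in keratinocyte-like ones (30.045 to 34.996), and Krt1 8.04% (5.69 to 10.95) against 28.9% (26.6 to 31.4). Type II chains made up 15.2% (11.98 to 18.8).

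The imbalance between Krt10 and Krt1 was clear in 4 classes of WT. Krt10 and Krt1 had 459 and 409 UMIs in keratinocyte-like WT cells, a ratio of 1.12 (0.980 to 1.29), and 300 and 36 in all other WT cells, a ratio of 8.33 (5.89 to 12.1). They had 107 and 8 in melanoblast-like, 103 and 14 in glial-like, 41 and 5 in mesenchymal-like and 21 and 2 in adipocyte-like cells. Mast cell-like cells had 6 and 0, with a lower bound over the keratinocyte-like ratio of 0.06 in log2, close to none. In macrophage-like cells, with 7 and 4, the ratio of 1.75 (0.445 to 8.15) could not be set apart from that of keratinocyte-like cells. The ratio of the other WT cells exceeded the keratinocyte-like one by 2.89 in log2 (2.35 to 3.47).

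In KO the ratio was 1.11 in keratinocyte-like cells (1.08 to 1.14; 10106 and 9084 UMIs) and 1.39 in all other cells (1.24 to 1.55; 770 and 555 UMIs), a difference of 0.32 in log2 (0.15 to 0.48). It was 1.59 in glial-like (1.31 to 1.93), 1.51 in mesenchymal-like (1.17 to 1.962) and 1.45 in melanoblast-like cells (1.12 to 1.89), and 0.762 in erythroid-like cells (0.372 to 1.53). In an unnamed class of 119 KO cells led by Mfap4, with 102 and 87 UMIs, it was 1.17 (0.872 to 1.58). That lay 0.08 in log2 over the keratinocyte-like ratio (-0.35 to 0.51), within counting error. The excess of Krt10 over Krt1 was therefore found in the same 3 classes in both libraries, and was smaller as a ratio in KO, where the lower bound over the keratinocyte-like ratio was 0.01 in log2 for melanoblast-like cells.

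Taken as an amount over all other cells, with Krt1 as reference, that excess differed between the libraries by less than counting error, which was wide in KO. The Krt10 level left after Krt1 UMIs times the keratinocyte-like ratio of the same library were subtracted was 37.2 CPM in other cells of WT (31.9 to 42.5) and 36.0 CPM in those of KO (17.9 to 54.2). By class it was 53.5 CPM in WT (40.3 to 66.8) and 69.0 in KO (32.3 to 106) for glial-like cells, 38.6 (30.3 to 47.0) and 40.6 (2.24 to 79.0) for melanoblast-like cells, and 36.1 (22.3 to 49.9) and 46.7 (9.31 to 84.1) for mesenchymal-like cells. In macrophage-like cells it was 4.25 CPM (-7.31 to 15.8) and 10.5 (-57.5 to 78.4). In the unnamed class led by Mfap4 it was 32.6 CPM in WT (-4.29 to 69.5) and 8.42 in KO (-37.7 to 54.5). The sum of Krt1, Krt5, Krt14, Krt15 and Krt17 was also used as reference, an alternative added after the data were seen. With it, the amount over all other cells was 34.7 CPM in WT and 23.6 in KO. Whether these cells transcribe Krt10 themselves was not tested.

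**Figure D3:**
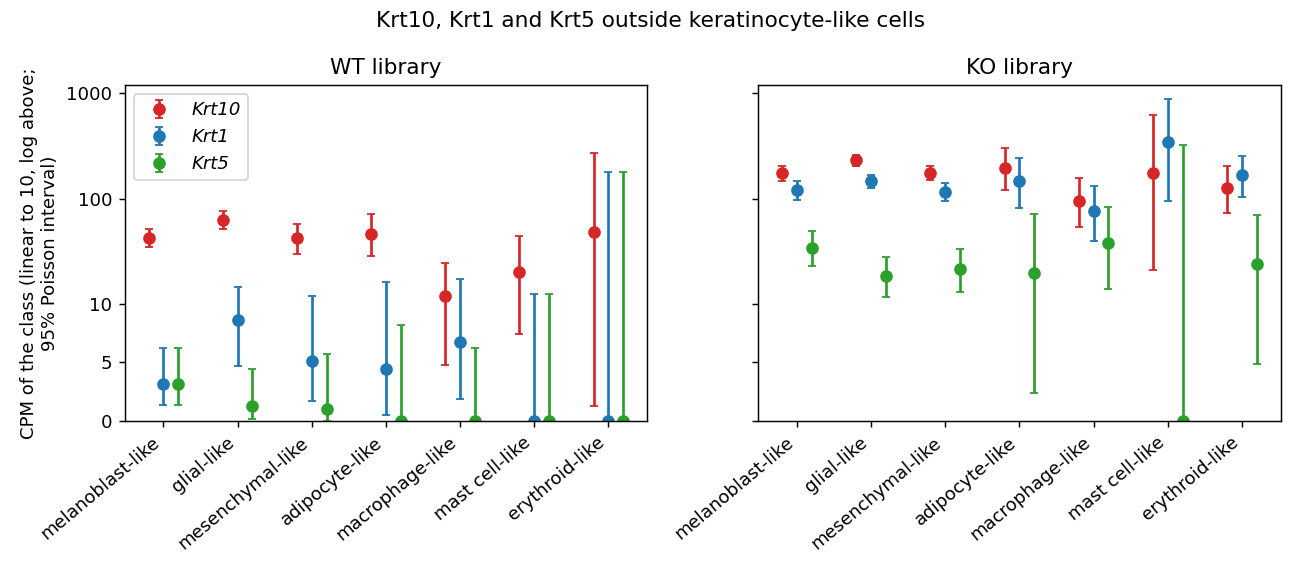
Points give CPM of Krt10 (red), Krt1 (blue) and Krt5 (green) in each class of cells that are not keratinocyte-like, in WT and KO, on an axis that is linear up to 10 CPM and logarithmic above; bars are 95% Poisson intervals. In WT, Krt10 lies above Krt1 in glial-like (63.2 against 8.59 CPM), melanoblast-like (42.2 against 3.15) and mesenchymal-like cells (41.8 against 5.10), and in KO the genes lie closer together.

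The share of other cells with a Krt10 UMI was 17.6% in WT (15.7 to 19.6) and 56.8% in KO (53.1 to 60.3), at median depths of 3950 and 4979 UMIs. After thinning to 2000 UMIs per cell they were 8.84% (7.41 to 10.4) and 30.04% (26.7 to 33.5), with 102 shallower cells of WT and 18 of KO not used. For Krt1 they were 2.36% and 49.9% before thinning and 1.12% (0.643 to 1.82) and 23.7% (20.7 to 27.0) after it. Keratinocyte-like cells, at median depths of 7538 and 9113 UMIs, had Krt1 in 41.7% and 88.9% of cells, and in 33.3% and 75% after thinning, with 0 and 5 cells left out.

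Krt4 went its own way in WT. Mast cell-like cells, all 7 of whose fixed markers were raised, held 12 of the 13 WT UMIs of Krt4 (ENSMUSG00000059668, chr15:101918535-101924735), in 11 of 92 cells. That is 40.4 CPM (20.9 to 70.5), against 1 UMI in the 1436 other cells outside the keratinocyte-like class (0.150 CPM, 0.00379 to 0.834), a log2 ratio of 8.08 (5.32 to 13.49). Keratinocyte-like WT cells had 0 Krt4 UMIs. The mast cell-like cells had 25 keratin UMIs in all, among them 6 of Krt10, 3 of Krt17, 2 of Krt79 and 1 of Krt14, and 0 of Krt1, Krt5 and Krt15.

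The share of mast cell-like WT cells with a Krt4 UMI was 11.96% (6.12 to 20.4), at a median depth of 2762.5 UMIs, and 7.58% (2.51 to 16.8) after thinning, with 26 cells left out. Over all WT cells outside the keratinocyte-like class it was 0.785% (0.406 to 1.37) and 0.421% (0.155 to 0.914). No mast cell-like cell held more than 2 Krt4 UMIs. The KO library had only 3 mast cell-like cells and 0 Krt4 UMIs in them. At their depth 3 counts are 260.1 CPM, so a level like that of WT was not detectable.

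Few single cells outside the keratinocyte-like class were rich in keratins. A glial-like KO cell had 22 keratin UMIs, with 11 of Krt10 and 7 of Krt1, and a melanoblast-like KO cell had 12, and both were called doublets. A melanoblast-like WT cell had 17 keratin UMIs and was not called a doublet. It had 11 Krt14 and 3 Krt15 UMIs and 0 of Krt10 and Krt1, and it held 11 of the 42 Krt14 UMIs of other WT cells.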

How the data were processed

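The deposited counts are UMIs per gene and barcode that the authors made with Cell Ranger 2.2.0 on mm10 extended by the tdTomato and Cre sequences, 1 library per genotype. Barcodes with at least 100 genes, at most 40000 UMIs and at most 10% mitochondrial UMIs were kept (6 WT and 18 KO barcodes left out). Both libraries were clustered together with scanpy 1.11.5 in Python 3.11.15: cells scaled to 10000 UMIs, 2000 variable genes of which 17 were held out, 30 components, 15 neighbours and Leiden resolution 1 (21 clusters). The genes to hold out were keratins, Xist, Tsix, Eif2s3y, Ddx3y, Kdm5d, Uty, Hira and the tdTomato and Cre sequences, and 17 of them were among the variable genes. A cluster was named after the list with the largest share of raised markers, with at least 3 raised, and stayed unnamed where its top 10 genes held more markers of another class. Keratinocyte-like cells were clustered again with 15 components and 10 neighbours. That conflict rule and these sub-cluster settings were chosen after the data were seen. Names were rebuilt from markers and may differ from those of the study. Scrublet called 9 WT and 6 KO doublets, 1 of them keratinocyte-like, and none was removed.

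UMIs were summed per class and library. CPM has an exact Poisson interval, shares have an exact Clopper-Pearson interval and ratios an exact conditional binomial interval (scipy 1.17.1), and Krt10 less its share by Krt1 a normal interval. Ratios of Krt10 to Krt1 were compared by an exact conditional odds ratio. Counts of 0 were set at a floor of 3 counts for bounds, and fold calls took genes with at least 10 UMIs, a fold of 2 and 1 UMI added. Shares of cells with a UMI were repeated after thinning each cell to 2000 UMIs. Members with at least 50 UMIs were named with values, those with 5 to 49 with counts and the rest as a group, and of each list the 2 genes with the most UMIs in keratinocyte-like cells; further genes were picked with their values known. The members and lists were chosen with earlier results of these data known. The calculations were tested on simulated data.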

Additional observations from a re-analysis of the deposited data

Results flagged for a closer look

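In keratinocyte-like cells and in the other cells, Krt5 and Krt17 had ratios of KO to WT of different sign. The log2 ratio of KO to WT of Krt5 was -0.25 (-0.49 to 0.01) in keratinocyte-like cells and 3.90 in the others, and that of Krt17 was -0.75 (-1.06 to -0.42) and 2.31. The interval of Krt5 included 0, while after thinning its ratio was -0.71 (-1.12 to -0.28), and without the WT cell richest in Krt17 the ratio of Krt17 was 0.30 (-0.14 to 0.78). With 1 library per genotype, the difference between the directions was not tested.

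Keratin signal also lay outside the comparisons. Krt6a, whose symbol ends in a letter, had 196 UMIs in KO and 0 in WT, and 187 of them were in 1 cell. The 18 KO barcodes left out by the cell filter held 1352 keratin UMIs, 2.55% of their 52934 UMIs. Of these barcodes, 9 had at least 20 keratin UMIs each, and the one with the most had 475 at 10.1% mitochondrial UMIs, just past the limit of 10%. The 6 WT barcodes left out held 5 keratin UMIs of 12238.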

How the results depend on the processing

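No paired analysis was possible because each genotype had 1 library. Over 28 results, 10 alternatives planned beforehand (among them 500 genes per cell, resolutions 0.5 and 2, keratins kept for clustering, another naming rule, doublets left out, thinning, and the mean of per-cell CPM) and 6 chosen after seeing the data gave 243 values. Many of these could not move, because the alternative left the cells they were read in as they were, so no tally is given. With keratins kept for clustering, the layers were not both named in KO, so the ratios between layers have no value under that setting. The log2 ratio of KO to WT of Krt15 in keratinocyte-like cells (0.30) was -0.03 with the mean of per-cell CPM and -0.02 without the group led by Dct. That of Krt17 (-0.75) was 0.30 without the WT cell richest in it. That of all keratins (0.94) was 0.57 without the group led by Dct. The cause was not tested. Requiring at least 50 UMIs gave 119 genes higher (413) and 93 lower (1104) of 1983 counted (6615) in KO keratinocyte-like cells, 484 higher (1131) and 242 lower (514) of 10080 (13291) in other KO cells, and 151 higher (766) and 118 lower (645) of 1041 (4294) in suprabasal-like cells. With 0.5 UMI added in place of 1, 1165 genes were higher and 860 lower in KO keratinocyte-like cells. The WT values rest on 12 keratinocyte-like cells with 83002 UMIs, where 3 counts are 36.1 CPM.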
